A study of Mus musculus with 6 samples.

Results

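Cholesterol synthesis and its control were followed in RNA-seq of V6.5 murine ESCs, a mouse embryonic stem cell line of mixed C57BL/6 and 129 background. The genes were chosen by name, with earlier results of these data known: Srebf2, Insig1, Hmgcs1, Idi1, Fdft1, Sqle, Lss and Cyp51. Of these 8 genes, 7 had a row assigned to them by RefSeq accession, out of 21409 genes with 1 row each. No row was assigned to Hmgcs1, which was not analysed here. Cells were infected with lentiviral shRNA constructs and selected with puromycin, at 0.5 and then 1 µg/ml for 48 hours each per the labels. There was 1 library with a hairpin against GFP (the control), 1 with a hairpin against SMC1, a subunit of cohesin, and 2 libraries each with different hairpins against CAPH2, a subunit of condensin II, and SMC2, which condensin I and condensin II share. The paired libraries, called R1 and R2 here, are therefore hairpins and not repeats of 1 hairpin, and all changes against GFP share that single control library. The labels do not say which libraries came from separate cultures, so the spread between libraries may be in part technical. The ESCs had been kept on irradiated embryonic fibroblasts and were grown off them for a passage before RNA was taken.

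ESCs, like other dividing cells, need cholesterol for new membrane and either make it from acetyl-CoA or take it up as lipoprotein. The transcription factor SREBP-2, encoded by Srebf2, sits in the endoplasmic reticulum membrane with its escort SCAP. When sterols are plentiful, Insig1 protein holds this complex back, and when they run short SREBP-2 is carried to the Golgi, cut and released to the nucleus. There it activates the enzymes of the pathway, Insig1 and its own gene, usually together with the factors NF-Y and Sp1. Hmgcs1 acts early, before mevalonate, Idi1 isomerizes the building block of all isoprenoids, and Fdft1 makes squalene, the first compound committed to sterols. Sqle and Lss then oxidize and cyclize squalene to lanosterol, which Cyp51 demethylates.

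SREBP-2 acts through short elements near transcription start sites, so 3 promoters are shown: those of Cyp51 and Srebf2, which held a near match to its element, and that of Insig1, which had the largest decrease of the 7 with either condensin target. Each is the 250 bases before the RefSeq start in GRCm38.p6, in gene orientation. They lie at chr5:4104698-4104947 (minus strand) for Cyp51, chr15:82147019-82147268 (plus strand) for Srebf2 and chr5:28071162-28071411 (plus strand) for Insig1. Capitals mark matches to a sterol regulatory element, TCACNCCAC, to a looser form of it, ATCACNNCA, and to the NF-Y core CCAAT on either strand.
Cyp51: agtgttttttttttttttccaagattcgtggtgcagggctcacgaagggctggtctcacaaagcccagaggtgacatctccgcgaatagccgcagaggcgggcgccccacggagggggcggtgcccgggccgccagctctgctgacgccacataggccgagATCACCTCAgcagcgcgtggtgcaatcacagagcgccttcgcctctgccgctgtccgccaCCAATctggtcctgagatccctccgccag
Srebf2: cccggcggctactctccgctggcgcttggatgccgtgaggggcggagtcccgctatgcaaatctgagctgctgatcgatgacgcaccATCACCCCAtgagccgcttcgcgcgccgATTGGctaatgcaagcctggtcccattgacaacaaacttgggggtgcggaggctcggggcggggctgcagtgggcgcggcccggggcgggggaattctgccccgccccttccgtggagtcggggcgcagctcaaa
Insig1: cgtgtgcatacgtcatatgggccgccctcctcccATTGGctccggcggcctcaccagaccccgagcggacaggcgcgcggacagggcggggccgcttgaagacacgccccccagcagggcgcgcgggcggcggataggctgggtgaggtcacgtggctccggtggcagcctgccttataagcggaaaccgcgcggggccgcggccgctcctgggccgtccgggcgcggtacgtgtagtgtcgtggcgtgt
Cyp51 held ATCACCTCA with its first base at -89 from the start, and Srebf2 held ATCACCCCA at -163. The promoter of Hmgcs1, not shown, held the stricter form as TCACCCCAC at -137. Those of Idi1, Insig1 and Lss held neither form within these 250 bases, which says only that these letters are not in this window. The looser form occurs, on either strand, in 2.3% of 32851 mouse promoters of the same length and the stricter one in 1.05%, and the 2 forms can overlap. The NF-Y core was present in all 6 promoters of the named genes that RefSeq's table gave (Hmgcs1, Idi1, Insig1, Lss, Cyp51 and Srebf2), against 33.8% of all promoters. The Sp1 core GGGCGG was present in those 6 also, against 32.7% of all. These are matches of letters and not measured binding, and the motifs to show in capitals were chosen after the sequences had been read.

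The libraries held 25467427 to 31337313 counts over all rows, in which reads of a shared exon enter every isoform. The knockdown targets were lowered in their own libraries: Smc1a was at 36.1 RPKM with the GFP hairpin and 14.4 in the SMC1 library, Ncaph2 at 80.2 against 16.9 and 27.9 with CAPH2 R1 and R2, and Smc2 at 26.6 against 18.8 and 19.1 with SMC2 R1 and R2. Smc2 was above its GFP level, at 40.6 to 42.3 RPKM, in the SMC1 and CAPH2 libraries. Ncaph2 was below its GFP level in the SMC1 library (54.0 RPKM) and with SMC2 R1 and R2 (63.9 and 64.9). Smc1a was above its GFP level in the condensin libraries (41.7 to 46.9 RPKM). Embryonic stem cell markers (10 genes) summed to 4027 RPKM with the GFP hairpin, 3315 to 3515 in the condensin libraries and 2108 in the SMC1 library, and none of the 10 was under 1 RPKM in any library. Fibroblast markers (10 genes) summed to 72.6 RPKM with the GFP hairpin, 162 in the SMC1 library, 115 with CAPH2 R1 and 79.8 to 91.6 in the other 3, with Dcn and Lum under 1 RPKM in all 6. Primitive endoderm markers (10 genes) summed to 52.9 RPKM with the GFP hairpin, 95.1 in the SMC1 library and 56.7 to 65.5 in the others, with Gata6, Sox17, Sox7, Foxa2 and Pdgfra under 1 RPKM throughout. The SMC1 library thus stood apart in its cell markers, and the part of these shifts in the results below was not tested. In bulk RNA, fewer cells of a type and less RNA per cell cannot be told apart.

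With either condensin target reduced, all 7 cholesterol genes were at a lower RPKM than with the GFP hairpin, and this held in each of the 4 libraries. An RPKM is a read count divided by exon length and by the library's reads. Of all 12381 genes with at least 1 RPKM with the GFP hairpin, 38.3% were below it in all 4 condensin libraries. Counting the SMC1 library too, 5 of 7 were below GFP in all 5, against 32.5% of all genes. With SMC1 reduced the genes parted, as Insig1, Fdft1, Lss and Srebf2 fell while Sqle and Cyp51 had values slightly above GFP. Tests below are edgeR's quasi-likelihood test with Benjamini-Hochberg adjustment over all 14843 genes tested, at an adjusted p of 0.05, in 1 fit of the 6 libraries. That fit takes the spread from the hairpin pairs and assumes that the lone GFP and SMC1 libraries vary as much.

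**Figure D1:**
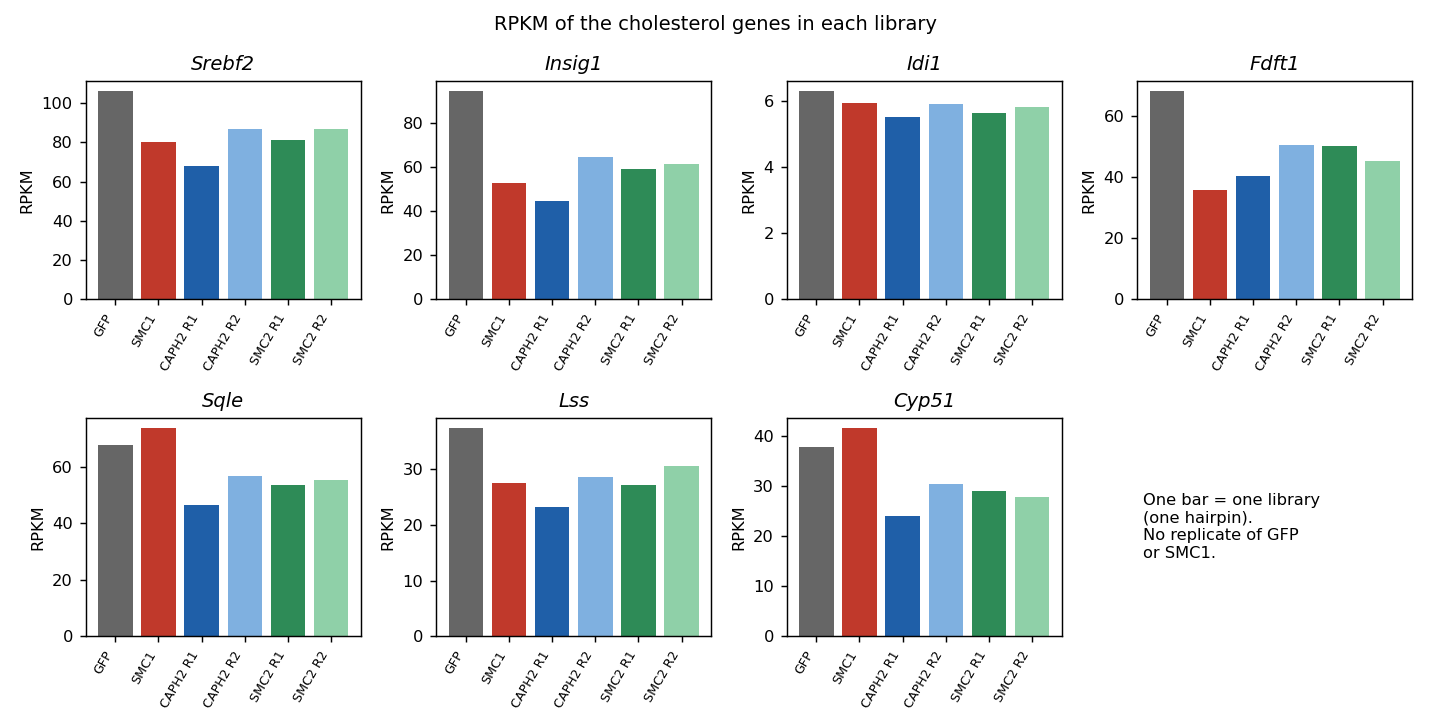
RPKM (vertical axes, from 0) of the 7 measured genes in each library, 1 bar per library and so with no error bars; the color marks the target and hairpin. The GFP bar is above all 4 condensin bars in every panel, and the SMC1 bar is above the GFP bar for Sqle and Cyp51.

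Srebf2, the activator of the pathway (chr15:81977699-82035390 in mm9, plus strand), was the most highly expressed of the set, at 105.8 RPKM with the GFP hairpin. It was at 80.2 RPKM in the SMC1 library, 68.0 and 86.8 with CAPH2 R1 and R2, and 81.1 and 86.6 with SMC2 R1 and R2. The SMC1 value lay among the condensin values and all 5 were below the control. Srebf2 fell with SMC1 (log2 difference -0.41, SE 0.15, edgeR adjusted p = 0.0396), and with DESeq2 this call was lost (adjusted p = 0.22). The differences were -0.45 (SE 0.12, adjusted p = 0.0531) for CAPH2 and -0.33 (SE 0.12, adjusted p = 0.13) for SMC2 against GFP by edgeR, which did not pass.

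Insig1, the sterol-sensitive brake on SREBP processing and itself an SREBP target (chr5:28397952-28405202, plus strand), had the largest decrease of the 7 with either condensin target. Its level was 94.3 RPKM with the GFP hairpin, 52.9 in the SMC1 library, 44.5 and 64.7 with CAPH2 R1 and R2, and 59.0 and 61.5 with SMC2 R1 and R2. The gap between the control and the highest of the other 5 exceeded the range of those 5, and the share of all genes with such a gap was not computed. Insig1 fell with SMC1 (log2 difference -0.85, SE 0.20, edgeR adjusted p = 0.0062), CAPH2 (-0.79, SE 0.17, adjusted p = 0.0274) and SMC2 (-0.64, SE 0.17, adjusted p = 0.0498). The SMC2 call sat at the threshold, and DESeq2 called none of these 3 differences (adjusted p = 0.0733, 0.128 and 0.245). The CAPH2 hairpins differed most at this gene, with a mean of 54.6 ± 14.3 RPKM (SD, n = 2 hairpins) against 60.2 ± 1.80 (SD, n = 2 hairpins) for SMC2. Stretches of another locus matched 79.2% of the Insig1 transcript at 95% identity or more, so its reads may have been divided between those places.

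Idi1, isopentenyl-diphosphate isomerase (chr13:8884852-8891641, plus strand), hardly varied. It was at 6.29 RPKM with the GFP hairpin, 5.93 in the SMC1 library, 5.52 and 5.91 with CAPH2 R1 and R2, and 5.64 and 5.83 with SMC2 R1 and R2. The GFP value was the highest and the CAPH2 R1 value the lowest of the 6, yet the whole range was small beside that of the other genes. The log2 differences against GFP were -0.10 (SE 0.16, edgeR adjusted p = 0.634) for SMC1, -0.14 (SE 0.13, adjusted p = 0.533) for CAPH2 and -0.13 (SE 0.13, adjusted p = 0.589) for SMC2, and none passed. The gene had only 319 to 388 counts a library, and for the lowest value, 87.8% of the GFP level, the 95% exact binomial interval of counting error ran from 75.9 to 101%. Sequence repeated at 2 or more further places at 95% identity covered 86.5% of the transcript, and the alignment discarded reads with more than 2 places. How many reads of Idi1 were lost in this way was not tested, so its level is not compared with those of the other genes.

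Fdft1, squalene synthase (chr14:63763988-63796630, minus strand), fell with all 3 targets. Its level was 68.0 RPKM with the GFP hairpin, 35.8 in the SMC1 library, 40.4 and 50.5 with CAPH2 R1 and R2, and 50.3 and 45.4 with SMC2 R1 and R2. It was the sole gene of the set lowest in the SMC1 library, below all 4 condensin libraries. Of all genes, 41.7% were below all 4 condensin libraries with SMC1. The log2 differences against GFP were -0.94 (SE 0.15, edgeR adjusted p = 0.000776) for SMC1, -0.58 (SE 0.12, adjusted p = 0.0288) for CAPH2 and -0.50 (SE 0.13, adjusted p = 0.0451) for SMC2. The SMC2 call was lost with a mean of at least 50 counts and when either SMC2 hairpin was left out. The CAPH2 call was lost without SMC2 R1. The SMC1 library kept 52.6% of the GFP level, with a 95% exact binomial interval of counting error from 49.8 to 55.5%. Exons of Ctsb overlap 26.9% of the Fdft1 exon bases and the library kit does not mark strand, while another locus matches 56.3% of the transcript. Ctsb itself was at 36.5 RPKM with the GFP hairpin and 29.4 to 33.0 in the other 5, and its part in the Fdft1 values was not tested.

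Sqle, squalene epoxidase and a rate-limiting step after squalene (chr15:59146647-59162748, plus strand), behaved differently in the SMC1 library. Its level was 68.0 RPKM with the GFP hairpin, 73.8 in the SMC1 library, 46.4 and 56.7 with CAPH2 R1 and R2, and 53.6 and 55.6 with SMC2 R1 and R2. The SMC1 library was the highest of the 6, and the condensin libraries did not overlap with either of the lone ones. With SMC1, 36.9% of all genes were above all 4 condensin libraries, and 38.3% were below GFP in all 4 condensin libraries. The log2 differences against GFP were 0.11 (SE 0.13, edgeR adjusted p = 0.524) for SMC1, -0.40 (SE 0.11, adjusted p = 0.0565) for CAPH2 and -0.31 (SE 0.11, adjusted p = 0.118) for SMC2, none past the threshold. DESeq2 placed the CAPH2 difference past it (adjusted p = 0.0356).

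Lss, which closes the sterol ring (chr10:75994372-76016679, plus strand), and Cyp51, which removes a methyl group from lanosterol (chr5:4080674-4104697, minus strand), had similar levels in the control but not in the SMC1 library. Lss was at 37.4 RPKM with the GFP hairpin, 27.6 in the SMC1 library, 23.3 and 28.6 with CAPH2 R1 and R2, and 27.1 and 30.5 with SMC2 R1 and R2. Cyp51 was at 37.8 RPKM with the GFP hairpin, 41.6 in the SMC1 library, 24.0 and 30.5 with CAPH2 R1 and R2, and 29.0 and 27.8 with SMC2 R1 and R2. For Lss the SMC1 value lay within the condensin values, and for Cyp51 it lay above all 5 others. Of all genes, 36.9% were above all 4 condensin libraries with SMC1. Lss fell with SMC1 (log2 difference -0.45, SE 0.15, edgeR adjusted p = 0.0299) and CAPH2 (-0.53, SE 0.13, adjusted p = 0.036) and was at -0.37 (SE 0.13, adjusted p = 0.1) for SMC2. Cyp51 fell with CAPH2 (-0.47, SE 0.13, edgeR adjusted p = 0.0487), a call lost with total counts as the scale (adjusted p = 0.0525), with a mean of at least 50 counts (0.0565) and without CAPH2 R1 (-0.30, 0.0572), SMC2 R1 (0.102) or SMC2 R2 (0.0595). It was at 0.13 (SE 0.15, adjusted p = 0.501) for SMC1 and -0.40 (SE 0.13, adjusted p = 0.0805) for SMC2.

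In all, edgeR called 4 of the 7 genes lower with SMC1 (Insig1, Fdft1, Lss and Srebf2), where it called 23.1% of all genes lower and 24.8% higher. It called 4 of 7 lower with CAPH2 (Insig1, Fdft1, Lss and Cyp51), against 3.44% of all genes lower and 4.74% higher. It called 2 of 7 lower with SMC2 (Insig1 and Fdft1), against 2.69% lower and 4.14% higher. None of the 7 was called higher than GFP with any target. The genes were chosen with earlier results of these data known, so these shares describe the set and do not test it. The median log2 difference of the 7 genes was -0.41 for SMC1, -0.47 for CAPH2 and -0.37 for SMC2, where that of all genes tested lay between -0.002 and 0.008. The adjusted p-values near the threshold moved with the libraries that set the spread. For CAPH2 and SMC2 against GFP, fits that left out a single hairpin changed the number of genes called over the whole table. Every CAPH2 and SMC2 call among the 7 was lost in some of these fits, so these calls, and others near the threshold, are not firm. The log2 differences of CAPH2 and SMC2 against GFP were below 0 in all of these fits for all 7 genes.

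The sizes above are relative to the RNA of each library, and they depend on that scale. ERCC synthetic RNAs had been added per cell number, and scaling to their counts adds the same log2 value to every gene of a library: 0.86 for SMC1, 0.63 and -0.05 for CAPH2 R1 and R2, and 0.64 and 0.57 for SMC2 R1 and R2. On the read scale the median log2 change of the 7 genes was -0.40 with SMC1, -0.66 and -0.31 with CAPH2 R1 and R2, and -0.38 and -0.29 with SMC2 R1 and R2, while that of all genes lay between -0.03 and -0.01. On the ERCC scale it was 0.46, -0.02, -0.36, 0.25 and 0.27 in the same order, against 0.83, 0.62, -0.07, 0.61 and 0.53 for all genes. So the direction against GFP turned for SMC1 and both SMC2 hairpins, while the gap between the median of the 7 and that of all genes is the same on both scales by construction. With ERCC counts as the scale, edgeR called 0 of 7 in each of the 5 comparisons, and the CAPH2 hairpins then differed from each other by the spike-in counts as well.

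**Figure D2:**
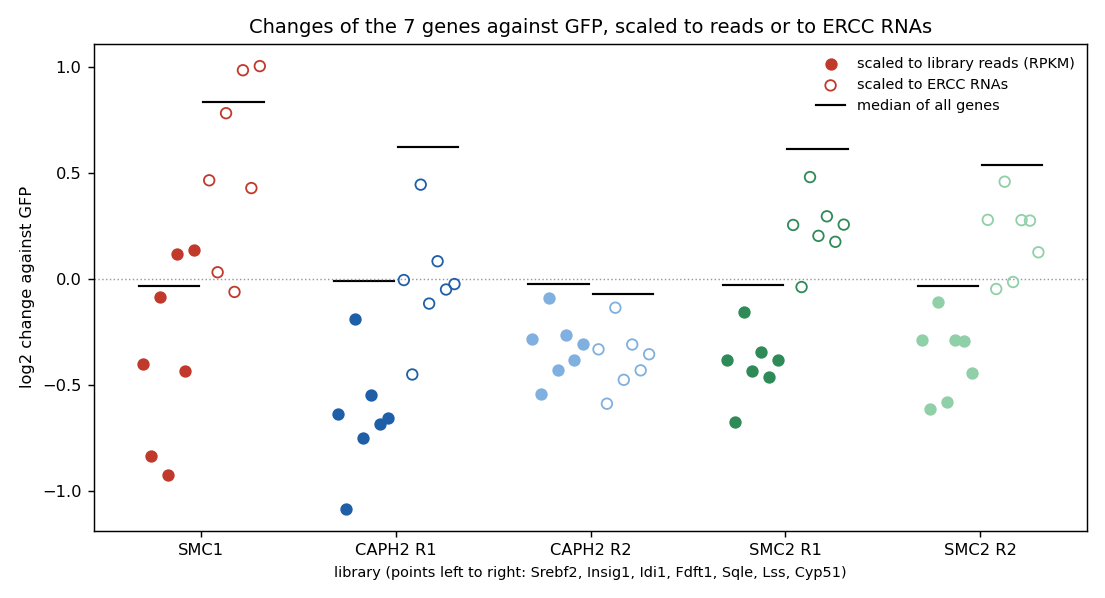
Log2 change against the GFP library (vertical axis) of the 7 genes, 1 point per gene in each of the 5 knockdown libraries, filled for RPKM and open for values scaled to ERCC RNAs; black lines are the median of all 12381 genes. On the read scale every condensin point is below 0, and on the ERCC scale most points of SMC1 and both SMC2 libraries are above 0 but below the black line.

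The comparison of cohesin with condensin does not use the control library and asks where the targets differ. Sqle and Cyp51 were higher in the SMC1 library than in the condensin libraries, by 0.46 (SE 0.10, edgeR adjusted p = 0.00493) and 0.56 (SE 0.11, adjusted p = 0.00301) on the log2 scale. Fdft1 was lower by a log2 difference of -0.40 (SE 0.12, adjusted p = 0.0237). Thus 2 of 7 genes were called higher and 1 of 7 lower, where 22.9% of all genes were called higher and 20.5% lower. The shares of the 7 genes are near those of all genes. By RPKM, 3 of 7 genes (Sqle, Idi1 and Cyp51) were above all 4 condensin libraries with SMC1 and 1 of 7 (Fdft1) below them, against 36.9% and 41.7% of all genes. The differences of the remaining genes were -0.13 (SE 0.16) for Insig1, 0.04 (SE 0.12) for Idi1, -0.02 (SE 0.12) for Srebf2 and 0.00 for Lss (SE 0.12), with adjusted p-values from 0.525 to 0.991 in edgeR. Without SMC2 R1, Fdft1 missed the threshold (adjusted p = 0.0626), and without CAPH2 R1, Insig1 passed it (-0.28, adjusted p = 0.00535). Sqle and Cyp51 kept their calls in each fit that left out a hairpin. With ERCC counts as the scale the differences became 0.89 (adjusted p = 0.299) for Sqle and 1.00 (adjusted p = 0.212) for Cyp51, and that of Fdft1 turned to 0.03, so none was called.

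Ratios between genes of 1 library are free of its scaling, and they were taken after the levels had been seen. Relative to Srebf2, Sqle was at 0.642 with the GFP hairpin, 0.921 in the SMC1 library and 0.660 ± 0.0175 (SD, n = 4) in the condensin libraries. Cyp51 was at 0.358 with the GFP hairpin, 0.519 in the SMC1 library and 0.346 ± 0.0165 (SD, n = 4) in the condensin libraries. Fdft1 went the other way, from 0.643 with the GFP hairpin to 0.446 in the SMC1 library, with 0.580 ± 0.0405 (SD, n = 4) in the condensin libraries. Lss kept nearly the same ratio in all 6 libraries, at 0.353 with the GFP hairpin, 0.344 in the SMC1 library and 0.340 ± 0.00993 (SD, n = 4) with condensin reduced. Insig1 was at 0.891 with the GFP hairpin, 0.660 in the SMC1 library and 0.709 ± 0.0395 (SD, n = 4) with condensin reduced. The GFP ratio was the highest of the 6 libraries for Insig1 and Fdft1, and for Lss by a small margin (0.3533 against 0.3524 with SMC2 R2). The share of all genes for which this holds was not computed, so it is not read as a trait of these genes. In the SMC1 library the ratio to Srebf2 lay above all 5 others for 2 of the 6 genes (Sqle and Cyp51) and below all 5 for 1 (Fdft1), against 25% and 22.6% of 12380 genes.

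**Figure D3:**
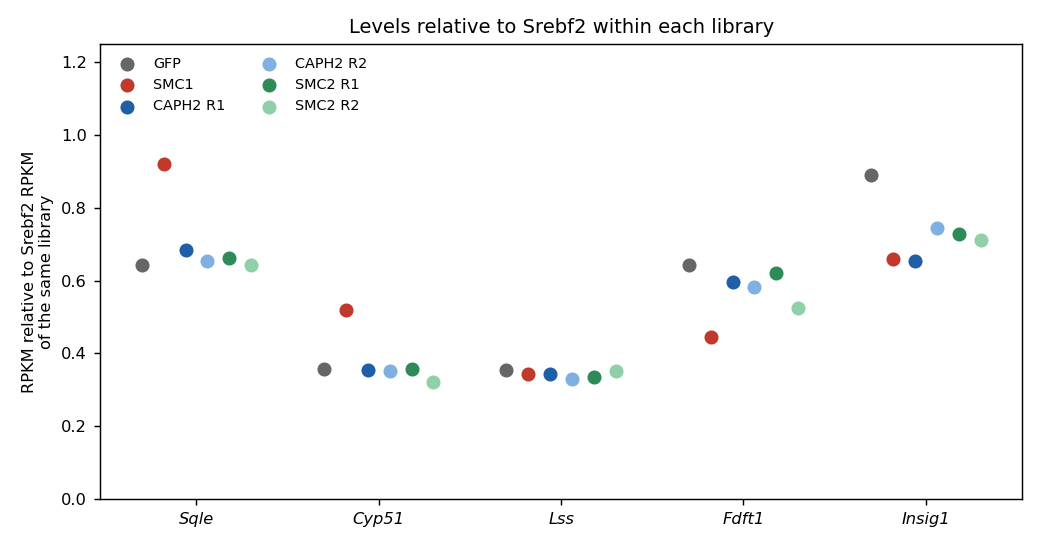
RPKM of 5 genes divided by the RPKM of Srebf2 in the same library (vertical axis, from 0, no unit), 1 point per library. The SMC1 point is above the others for Sqle (0.921) and Cyp51 (0.519) and below them for Fdft1 (0.446), and for Insig1 the GFP point (0.891) is the highest.

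CAPH2 and SMC2 were compared directly, with 2 hairpins each. None of the 7 genes was called (edgeR adjusted p = 0.998 for each, and 0 of 7 at an unadjusted p under 0.05 or by DESeq2), where 0.0202% of all genes were called. The log2 differences, SMC2 minus CAPH2, ran from 0.01 (SE 0.11) for Idi1 to 0.16 (SE 0.10) for Lss, so differences of that size were not resolved. Without CAPH2 R2, which left CAPH2 R1 alone, the log2 difference was 0.46 for Insig1 and 0.32 for Srebf2. With 1 CAPH2 library, no call is read from that fit. CAPH2 R1 was the library with the lowest value of all 6 for 6 of the 7 genes (every one but Fdft1), where 9.84% of all genes had their lowest value there. All 7 genes were lower with CAPH2 R1 than with CAPH2 R2, against 49.6% of all genes. The RPKM with CAPH2 R1 was at least 1.5-fold below GFP for 5 of 7 genes (Insig1, Fdft1, Lss, Cyp51 and Srebf2; 6.7% of all genes) and with CAPH2 R2 for 0 of 7 (2.99%). With SMC2 R1 and R2 it was so for Insig1 alone (4.77% and 3.82%), and with SMC1 for Insig1 and Fdft1 (17.6%). Ncaph2 was lower with CAPH2 R1 than with R2, and the fibroblast marker sum was higher, and the part of either in the difference between these hairpins was not tested.

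Of the 15 further enzymes of the pathway, edgeR called 10 lower and 2 higher with SMC1, 5 lower with CAPH2 and 4 lower with SMC2, against GFP. Of all genes, 23.1% were called lower and 24.8% higher with SMC1, 3.44% lower with CAPH2 and 2.69% lower with SMC2. Their median log2 difference was -0.54, -0.35 and -0.33 in the same order. Mvd, the mevalonate diphosphate decarboxylase, fell with each target, by log2 differences of -1.01 (SE 0.16), -0.73 (SE 0.13) and -0.61 (SE 0.13). Dhcr7, the last reductase before cholesterol, fell with each target, by -0.68 (SE 0.15), -0.67 (SE 0.13) and -0.60 (SE 0.13), with adjusted p-values for both genes between 0.00067 and 0.0279. Tm7sf2, a sterol reductase, fell with SMC1 (-1.13, SE 0.24, adjusted p = 0.00363) and CAPH2 (-0.78, SE 0.19, adjusted p = 0.0416), and Pmvk, phosphomevalonate kinase, fell with SMC1 (-0.68, adjusted p = 0.00177), CAPH2 (-0.54, adjusted p = 0.0228) and SMC2 (-0.53, adjusted p = 0.0231). Between SMC1 and condensin, 3 of the 15 were higher and 3 lower, near the shares of all genes (22.9% and 20.5%). Hsd17b7, a late enzyme, was higher with SMC1 (0.65, SE 0.10, adjusted p = 0.000579), and Ebp, the sterol isomerase, was lower (-0.63, SE 0.11, adjusted p = 0.0015). Their per-library medians, below 0 on the read scale in all 5 libraries, were above 0 on the ERCC scale in all but CAPH2 R2.

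**Figure D4:**
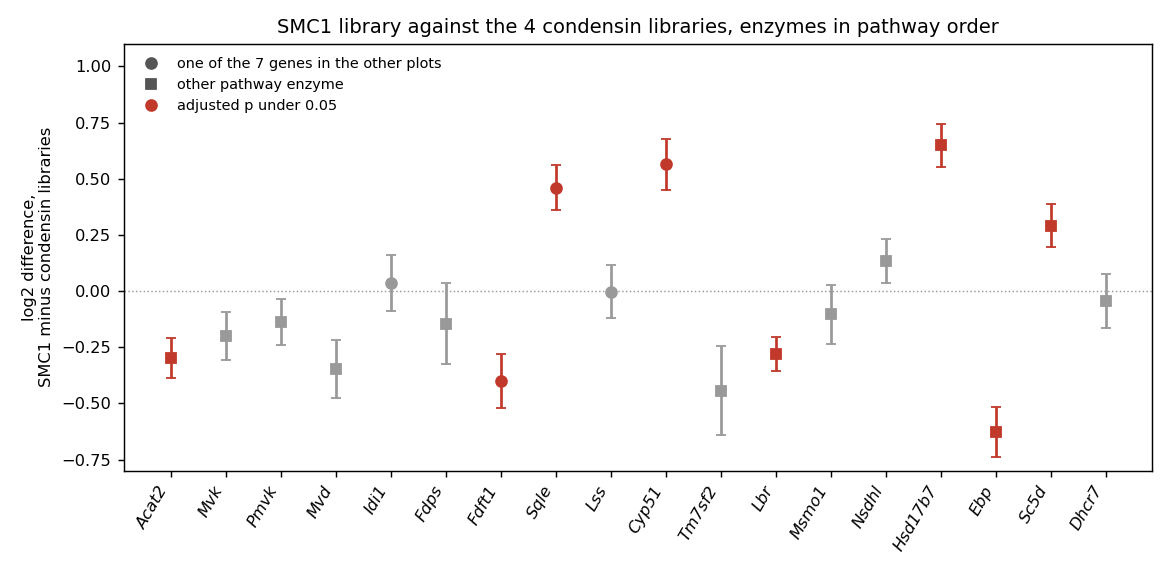
Log2 difference, SMC1 library minus the condensin libraries (vertical axis, edgeR, bars are 1 SE), for 18 enzymes in pathway order (Tm7sf2 and Lbr act at the same step); circles are genes of the other plots and red marks an adjusted p under 0.05. Sqle, Cyp51, Hsd17b7 and Sc5d lie above 0 and Acat2, Fdft1, Lbr and Ebp below, with called genes on both sides in the later steps.

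Genes of SREBP control and of cholesterol efflux were also called more often with SMC1, as were genes of the whole table, and the log2 differences below are all against GFP. Among 7 other genes of SREBP control, 2 rose and 1 fell with SMC1 against GFP, near the shares of all genes (24.8% higher and 23.1% lower). Scap, the escort of SREBP, rose by 0.56 (SE 0.12, edgeR adjusted p = 0.00415) and Srebf1 fell by 0.45 (SE 0.11, adjusted p = 0.00789). Srebf1 also fell with CAPH2 (-0.48, SE 0.09, adjusted p = 0.0229) and SMC2 (-0.46, SE 0.09, adjusted p = 0.0258), the sole call of the 7 in each. Among 7 efflux and LXR genes, 1 rose and 4 fell with SMC1, where 24.8% and 23.1% of all genes did, and 3 fell with each condensin target (Abcg1, Nr1h2 and Apoe), against 3.44% of all genes with CAPH2 and 2.69% with SMC2. Abcg1, a sterol exporter, fell by 2.42 (SE 0.19, adjusted p = 2.02e-05) with SMC1, 0.86 (SE 0.14, adjusted p = 0.0189) with CAPH2 and 0.79 (SE 0.14, adjusted p = 0.0185) with SMC2. Apoe, a lipoprotein carrier of cholesterol, fell by 1.92 (SE 0.11, adjusted p = 4.35e-06), 0.45 (SE 0.09, adjusted p = 0.0272) and 0.49 (SE 0.09, adjusted p = 0.0217) in the same order, and Soat1, which esterifies cholesterol, rose with SMC1 by 0.85 (SE 0.11, adjusted p = 0.000267).

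Among 11 genes of uptake and intracellular transport, 2 rose and 3 fell with SMC1, 3 fell with CAPH2 and 2 fell with SMC2. The SMC1 counts are near the shares of all genes (24.8% higher and 23.1% lower), and the shares of all genes called lower were 3.44% with CAPH2 and 2.69% with SMC2. Lrp1, a large lipoprotein receptor, rose with SMC1 by 1.07 (SE 0.10, edgeR adjusted p = 4.47e-05). Scarb1, the HDL receptor, fell with each target, by 0.88 (SE 0.16), 0.50 (SE 0.13) and 0.55 (SE 0.13) on the log2 scale, with adjusted p = 0.00145, 0.0468 and 0.037. Of 13 genes of fatty acid synthesis, 2 rose and 4 fell with SMC1 (24.8% and 23.1% of all genes), and none was called with CAPH2 or SMC2. At an unadjusted p under 0.05 there were 6 of 13 with CAPH2 and 4 of 13 with SMC2, where all genes gave 4134 and 3957 of 14843. Of 10 genes of the nonsterol isoprenoid branch, 3 rose and 3 fell with SMC1 (24.8% and 23.1% of all genes), and 1, Pggt1b, the subunit of a geranylgeranyl transferase, rose with CAPH2 (0.71, SE 0.12, adjusted p = 0.0197) and SMC2 (0.70, SE 0.12, adjusted p = 0.0171), where 4.74% and 4.14% of all genes rose. These lists were not set against each other by a test, and their directions are on the read scale: the ERCC scale would add the values given above and turn a fall smaller than that.

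The genes whose pattern over the 6 libraries was most like the mean of the 7 were found by Pearson's r of centred log2 RPKM over 2729 genes of at least 5 RPKM in every library, as a description over 6 libraries that share 1 control. Among the highest were Rras (0.982), Kctd13 (0.979), Alkbh5 (0.978) and Bst2 (0.972). Within the set, Srebf2 (0.975), Lss (0.964), Insig1 (0.956) and Idi1 (0.956) followed the mean that they are part of more closely than the others. Those were Fdft1 (0.748), Sqle (0.733) and Cyp51 (0.724), the 3 genes called between SMC1 and condensin. Such calls were near the shares of all genes (22.9% higher and 20.5% lower), and the same SMC1 values enter both results. Idi1 hardly varied (5.52 to 6.29 RPKM), so its r rests on a small range and few counts.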

How the data were processed

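RNA-seq was available for 6 libraries of V6.5 ESCs. Reads had been aligned by the authors to mm9 with Bowtie, discarding those with more than 2 places. The authors counted exonic reads and deposited raw counts per RefSeq transcript, with nothing pooled. The authors also deposited RPKM values, scaled to exon length and each library's own reads and not to the ERCC RNAs. Each file held 26073 RefSeq rows and 92 ERCC rows, and 724 RefSeq rows had no symbol. For each gene the row with the most counts was used. Counts were tested with edgeR 4.0.16 in R 4.3.3 (TMM, 4 groups, genes with 10 or more counts in 2 or more libraries), a fit with 2 residual degrees of freedom. DESeq2 1.42.0 was an alternative. On simulated counts for 14843 genes, the edgeR step recovered 53 of 100 genes changed 1.5-fold and 87 of 100 changed 2-fold for SMC1 against GFP, with 5 false calls among 145. For CAPH2 against GFP it recovered 71 and 90 with 7 false calls among 168, and for SMC2 against GFP 66 and 94 with 7 among 167. For SMC1 against condensin it recovered 78 and 93 with 15 among 186, and for SMC2 against CAPH2 79 and 97 with 9 among 185. All libraries, the lone ones included, were simulated at the spread fitted to these data, and the changed genes had a mean of at least 50 counts. It therefore cannot check the assumption that the lone libraries vary like the hairpin pairs. Log2 changes per library are ratios of RPKM with no pseudocount. Counting intervals are 95% exact binomial intervals and cover counting error only. Copies of transcripts were sought with blastn 2.17.0 in the mm9 genome (at least 95% identity over at least 40 bases), and promoters came from RefSeq (GRCm38.p6). The genes and gene lists were chosen with earlier results of these data known. Beyond the 7 measured genes, the text names from each list at most the 3 largest changes among genes called with a mean of at least 50 counts, and the 5 genes most alike in pattern (RPKM of at least 5, SD of at least 0.2 on the log2 scale). Some genes under this rule are not reported here. Genes in a sentence that lists all calls of a list, and Ctsb, were named after their values were seen. The alternatives were other scalings, filters, all RefSeq rows, DESeq2 and leaving out each hairpin.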

Additional observations from a re-analysis of the deposited data

How the results depend on the processing

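With a single control and a single SMC1 library, and spread taken from hairpin pairs, adjusted p-values near 0.05 are not firm. Each of the 7 genes had 319 counts or more in every library, Idi1 the fewest. Of the 399 values of single genes under alternatives, 318 kept direction and side of the threshold, 32 lost the call, 18 gained it and 31 reversed. ERCC scaling gave 15 of the reversals, which all read above 0: against GFP, SMC1 gave Idi1 0.78, Insig1 0.031, Lss 0.43 and Srebf2 0.46, CAPH2 gave Idi1 0.18, and SMC2 gave Sqle 0.29, Idi1 0.47, Fdft1 0.10, Lss 0.23, Cyp51 0.19 and Srebf2 0.27. SMC1 against condensin then gave Insig1 0.31, Fdft1 0.032, Lss 0.43 and Srebf2 0.41. ERCC scaling moves the all-gene median by construction, and the median change of the 7 genes became 0.46 (SMC1), -0.025 (CAPH2 R1), 0.25 (SMC2 R1) and 0.27 (SMC2 R2). It left 0 of 7 genes called in every comparison, and 1904 (SMC1), 5 (CAPH2) and 0 (SMC2) genes in all against GFP and 1420 for SMC1 against condensin.

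The other reversals concerned differences not called in the main fit. The largest of these were for Insig1, at 0.15 for SMC2 against CAPH2 and -0.13 for SMC1 against condensin. Lss in SMC1 against condensin was 0.0057 with DESeq2 size factors, 0.016 with total counts, 0.015 with a mean of at least 50 counts and 0.0051 with DESeq2. Leaving out a hairpin turned SMC1 against condensin for Idi1 (from -0.0085 to 0.050), Insig1 (-0.28 to 0.0034), Lss (-0.093 to 0.065) and Srebf2 (-0.13 to 0.059), and SMC2 against CAPH2 for Sqle (-0.054 to 0.25), Idi1 (-0.045 to 0.076), Insig1 (-0.10 to 0.46), Fdft1 (-0.077 to 0.26), Cyp51 (-0.10 to 0.27) and Srebf2 (-0.051 to 0.32).

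Of the 7107 genes called with SMC1, 1213 with CAPH2, 1015 with SMC2, 6443 for SMC1 against condensin and 3 for SMC2 against CAPH2, DESeq2 called 4900, 770, 768, 4256 and 7. DESeq2 called 2 of the 7 genes with SMC1 and 1 with SMC2. With no filter beyond a count above 0, 2093 (CAPH2), 1776 (SMC2) and 6 (SMC2 against CAPH2) genes were called, and 4 of the 7 with SMC2. With SMC2, 1 of 7 was called with DESeq2 size factors, total counts or all RefSeq rows, and 0 with a mean of at least 50 counts. With CAPH2, 3 of 7 were called with total counts or a mean of at least 50 counts. These settings each left 1 gene called for SMC2 against CAPH2. Leaving out a hairpin gave 6347 to 8158 genes (3 to 4 of the 7) for SMC1, 5 to 3546 (0 to 6) for CAPH2, 1 to 3071 (0 to 6) for SMC2, 5130 to 7417 (2 to 4) for SMC1 against condensin and 1 to 345 (0 to 2) for SMC2 against CAPH2. Apart from fewer samples and, for ERCC, the scale itself, the cause of these moves was not tested. The numbers R1 and R2 mark hairpins and do not pair the libraries (correlation of their deviations 0.0389). A replicate block on them called 60 genes and 0 of the 7 for SMC2 against CAPH2.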
